A study of Drosophila melanogaster with 3 samples.

Results

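Later-intron peaks of Sox15 were the reproducible peaks whose summit lay inside a gene but in no first intron, in no exon and more than 500 bp from every annotated transcript start site. There were 582 of them among 4555 reproducible peaks, which is 12.8% (95% Wilson interval 11.8 to 13.8%). The data came from chromatin immunoprecipitation followed by sequencing (ChIP-seq) in whole Drosophila melanogaster prepupae of both sexes, the stage between larva and pupa. All animals were of 1 transgenic line that carries Sox15 with a C-terminal eGFP tag, and an antibody against GFP pulled the tagged protein down. The age beyond the stage is not known, and the chromatin of all tissues was mixed. The single group had 3 biological replicates, so the comparisons were between classes of peaks, between summits and nearby sequence, and between replicates. No library from untagged flies or from input chromatin was analysed here.

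Sox15 belongs to the Sox family of transcription factors, whose high-mobility-group (HMG) domain fits into the minor groove of DNA. Sox proteins prefer words such as AACAAT and bend the DNA. In Drosophila, Sox15 is known for roles in the wing hinge and in the socket cells of sensory bristles. Introns are removed from the transcript, but their DNA can hold enhancers, which act on the promoter of the same gene or of a neighbour. In many fly genes the first intron is the longest one and holds much of this regulatory DNA. The later-intron class covers regulatory sequence deeper in the gene, and also introns that come after an alternative first exon.

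The sequences of the strongest later-intron summits are printed first, since base composition and short words at the summit are described further on. Each is the + strand of the dm6 assembly from 100 bp before to 100 bp after the summit, taken from the RefSeq Release 6 genome. The first set has the strongest member of each of 4 chromosome arms, with every copy of the word CAGTG, on either strand (CACTG on the printed one), in capitals.
CG11050, chr2L:6612610-6612810, + strand: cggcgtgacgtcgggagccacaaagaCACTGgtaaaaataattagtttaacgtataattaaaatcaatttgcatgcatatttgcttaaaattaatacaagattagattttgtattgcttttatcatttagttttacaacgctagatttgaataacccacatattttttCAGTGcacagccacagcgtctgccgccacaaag
Trl, chr3L:14759410-14759610, + strand: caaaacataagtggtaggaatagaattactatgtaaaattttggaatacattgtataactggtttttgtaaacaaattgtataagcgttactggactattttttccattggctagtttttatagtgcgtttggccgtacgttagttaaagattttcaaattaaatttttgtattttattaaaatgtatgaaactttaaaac
Raf, chrX:2300613-2300813, + strand: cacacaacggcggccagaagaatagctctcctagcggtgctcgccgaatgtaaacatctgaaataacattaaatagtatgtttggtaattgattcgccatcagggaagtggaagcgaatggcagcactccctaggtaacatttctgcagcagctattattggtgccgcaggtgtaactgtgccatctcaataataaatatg
sba, chr3R:23915118-23915318, + strand: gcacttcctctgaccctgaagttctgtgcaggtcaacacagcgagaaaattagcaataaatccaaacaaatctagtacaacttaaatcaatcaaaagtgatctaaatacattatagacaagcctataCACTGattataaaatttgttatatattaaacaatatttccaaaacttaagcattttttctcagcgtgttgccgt
CG11050 had 2 copies of CAGTG, sba had 1, and Trl and Raf had 0. The 2 copies of CG11050 stood at the ends of its intron of 140 bp, where splice signals also lie. The intron began right after the left copy and ended with the CAG of the right one. The GC content of the whole window was 34.8% at CG11050, 25.9% at Trl, 44.8% at Raf and 32.3% at sba.

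The next 2 members had CAGTG with TTT 4 bases before it, and the whole span of that longer word is in capitals. They show the side of the summit on which it lay and the way it faced.
ex, chr2L:442006-442206, + strand: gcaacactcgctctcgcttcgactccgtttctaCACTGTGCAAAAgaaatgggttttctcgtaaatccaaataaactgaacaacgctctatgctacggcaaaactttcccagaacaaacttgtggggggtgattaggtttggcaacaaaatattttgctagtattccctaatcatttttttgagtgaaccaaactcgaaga
CG1677, chrX:7302411-7302611, + strand: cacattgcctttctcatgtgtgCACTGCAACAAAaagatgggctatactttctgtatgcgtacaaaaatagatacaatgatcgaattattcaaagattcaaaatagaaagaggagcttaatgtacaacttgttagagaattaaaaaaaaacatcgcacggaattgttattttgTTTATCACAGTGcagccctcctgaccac
At ex, in an intron of expanded, which encodes a FERM-domain protein upstream of the Hippo growth pathway, the capitals stood left of the summit and read as the word on the opposite strand. At CG1677 the word stood on both sides, once on each strand, and both copies faced away from the summit.

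The last set shows the Sox core AACAAT, on either strand, in capitals, in members that held it at varied distances from the summit.
CG1677, chrX:7307047-7307247, + strand: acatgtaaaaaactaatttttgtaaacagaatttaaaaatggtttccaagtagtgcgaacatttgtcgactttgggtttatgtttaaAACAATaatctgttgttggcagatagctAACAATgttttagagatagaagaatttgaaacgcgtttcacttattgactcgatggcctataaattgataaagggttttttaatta
Dad, chr3R:17059557-17059757, + strand: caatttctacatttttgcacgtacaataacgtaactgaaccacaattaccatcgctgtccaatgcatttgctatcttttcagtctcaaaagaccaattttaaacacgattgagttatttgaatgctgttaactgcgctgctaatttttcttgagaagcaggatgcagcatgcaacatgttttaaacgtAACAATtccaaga
kirre, chrX:3053397-3053597, + strand: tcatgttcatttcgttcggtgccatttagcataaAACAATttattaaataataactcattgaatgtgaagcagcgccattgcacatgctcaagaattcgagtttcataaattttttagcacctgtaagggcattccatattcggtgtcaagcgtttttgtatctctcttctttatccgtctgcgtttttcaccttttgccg
The CG1677 window held 2 copies of AACAAT, one before and one after the summit. The Dad copy lay near the right end and the kirre copy in the left part of its window.

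The strongest later-intron peak lay in CG11050 (chr2L:6612545-6612876), with the authors' peak signal of 2138 and rank 15 among all reproducible peaks. In the replicates' own lists it had signals of 1142, 531.5 and 476.2 and ranks of 10, 27 and 21. Its summit lay in intron 2 of the gene, which is 140 bp long, so that the peak of this member ran past both ends of the intron. The signal is a value of the authors' peak caller with no stated scale, and it was used only to order peaks within 1 list.

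The next member lay in Trl, which encodes GAGA factor (chr3L:14759335-14759679, signal 1471), and had replicate signals of 790.2, 380.7 and 305.0. Tet, the fly gene of the Ten-eleven translocation enzyme family, had 1208 in the reproducible set and 617.6, 304.6 and 280.3 in the replicates. Raf, the kinase downstream of Ras, had 1191 and replicate signals of 552.4, 337.9 and 325.0. In all 3 replicates these members ranked between 34 and 85, near the top of each list. upSET, which encodes a SET-domain chromatin protein, had 1029, and Myc, the growth-promoting transcription factor, had 865.2. trio had 837.1 and ex had 752.0. These 4 ranked 231 or better in every replicate other than ex in replicate 1, where it ranked 270.

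The remaining members of the 20 strongest had signals of 557.9 to 734.6. They lay in sba, CG5854, CG1677 (3 peaks), dy, which encodes a zona pellucida domain protein of the wing cuticle, and Dad, the inhibitory Smad of the Dpp pathway. Others lay in kirre, a cell adhesion gene of myoblast fusion, fz, which encodes the Frizzled receptor, mam, the Notch coactivator Mastermind, Pli, which encodes Pellino, and Raf (a second peak there). Each of the 20 was matched in all 3 replicates. The lowest rank among them in any replicate was that of mam in replicate 3, 967, where its signal was 83.6, against ranks of 271 and 459 in replicates 1 and 2.

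**Figure D1:**
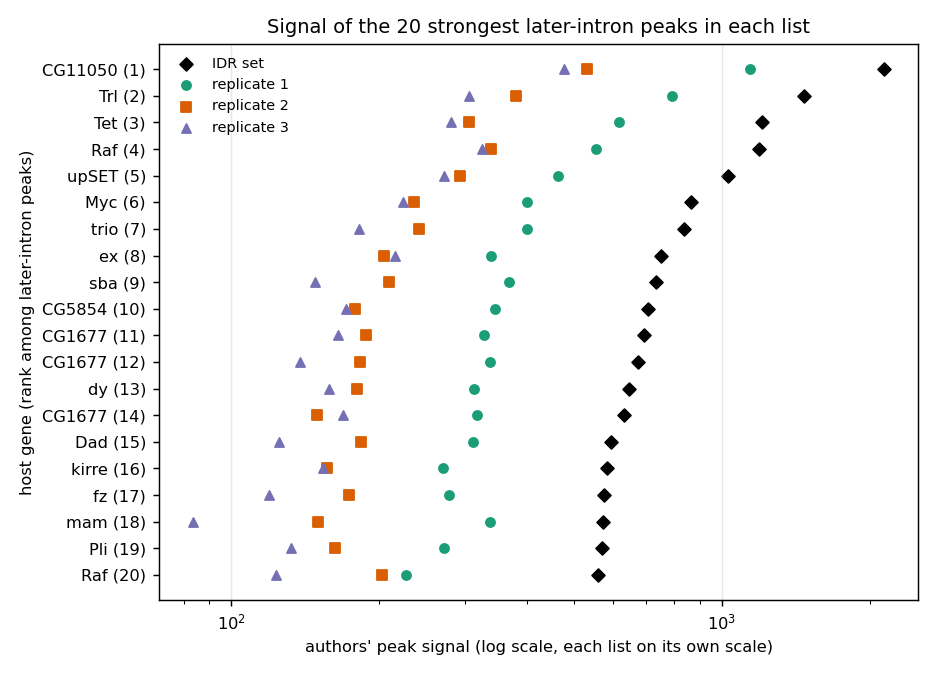
The authors' peak signal (log axis) of the 20 strongest later-intron peaks in the reproducible set and in each replicate's list, with host genes ordered by signal. Each list has its own, unadjusted scale. On the log axis mam has the widest gap between replicates, from 83.6 in replicate 3 to 337.3 in replicate 1.

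Later-intron peaks were of moderate strength. Their signal had a median of 188.0, with an interquartile range of 142.4 to 277.4 and a range of 116.6 to 2138. The medians were 204.4 in first-intron peaks and 182.6 in intergenic peaks away from start sites. Of the 100 strongest reproducible peaks, 5 were later-intron peaks. The later-intron share was 9.39% in the strongest quartile of reproducible peaks, 13.2% and 12.6% in the middle quartiles and 16.0% in the weakest. In the top 4555 peaks of each replicate on its own it was 12.7% ± 0.295 (SD, n = 3). Among the weaker entries below that line, which may include background, it was 19.4% ± 1.12 (SD, n = 3).

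Of the later-intron peaks, 257 of 582 (44.2%) had a signal above the median of the reproducible set, against 635 of 1274 first-intron peaks (49.8%). By construction 50% of all reproducible peaks lie there. The difference was −5.68 percentage points (Fisher's exact test, two-sided, adjusted p = 0.0485 over 4 tests). Taken within each replicate's own signal it was −6.48, −7.03 and −6.65 points, a mean of −6.72 ± 0.282 (SD, n = 3). Against intergenic peaks, of which 41.5% lay above the median, the difference of 2.69 points did not pass (Fisher's exact test, adjusted p = 0.454). It passed among the reproducible peaks matched in both replicates 2 and 3 (7.13 points, Fisher's exact test, adjusted p = 0.0493 over 2 tests). It also passed with only the strongest peak of each host gene (15.1 points, Fisher's exact test, adjusted p = 5.55e-05), a choice that removes weaker intron peaks and no intergenic ones. With only the strongest peak of each host gene the difference from first-intron peaks was −5.82 points and no longer passed (Fisher's exact test, adjusted p = 0.120). Among the peaks matched in both other replicates, with replicate 1, 2 or 3 set aside, it was −3.11, −3.64 and −4.61 points. It did not pass there (Fisher's exact test, adjusted p = 0.281, 0.215 and 0.189). These subsets kept the pooled signal, so no replicate was taken out of the signal itself. Each subset was split at its own median, and its p-values were adjusted over 2 tests, not 4. Peaks in 1 gene are not independent, and the p-values compare peaks, not animals.

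The reproducible set was chosen by the authors for agreement between replicates, so a high share of matches follows in large part from the rule. Of the 582, 411 (70.6%) had a match among the 4555 strongest peaks in each of the 3 replicates, 131 in 2 of them and 40 in 1, where a match covered at least 50% of the peak. All reproducible peaks gave 73.4%, first-intron peaks 76.8% and intergenic peaks 69.9%. The later-intron share differed by −6.15 points from the first-intron share (Fisher's exact test, two-sided, adjusted p = 0.0224) and by 0.700 points from the intergenic one, which did not pass (Fisher's exact test, adjusted p = 0.809). This call rested on the top lists, because in the whole relaxed lists 97.3% of later-intron peaks were matched and the difference turned to 0.391 points (Fisher's exact test, adjusted p = 0.770). It was also lost, in the same exact test, without replicate 1 (−4.14 points, adjusted p = 0.0947) and with a required overlap of 90% (−3.37 points, adjusted p = 0.247). The summits themselves stood close together, at a median distance of 9, 20 and 21 bp from the summit of replicates 1, 2 and 3.

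Later-intron summits lay deep in long introns of long genes. Their median distance to the nearest start site of any transcript was 5240 bp, with a range of 506 to 51832 bp, and 282 of 582 (48.5%) lay within 5000 bp of one. The intron that held the summit had a median length of 17446 bp, and the median distance to its nearer end was 3398 bp. Only 9 summits lay within 100 bp of an intron end, the one in CG11050 (69 bp) among them. Intron 2 was the lowest numbered intron for 377 members (64.8%), intron 3 for 97, intron 4 for 57 and a later one for 51. Along the intron from 5' to 3', the 4 equal stretches held 152, 186, 134 and 110 summits. Members often stood near each other, since 118 (20.3%) had another one within 1000 bp.

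The limit of 500 bp divided a continuous range of distances. Just inside the class were peaks in sick (506 bp), pAbp, the poly(A)-binding protein gene (507 bp), lncRNA:CR42736 (509 bp), tfc (511 bp) and dlg1, the Discs large scaffold gene (514 bp). Otherwise eligible peaks just outside lay in egr, which encodes the TNF ligand Eiger (495 bp), MESR3 (477 bp), Eip74EF, an Ets factor gene of the ecdysone response (464 bp), Trf2 (441 bp) and ClC-a (434 bp). In all, 116 peaks met every other condition and lay within 500 bp of a start site.

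Relative to the sequence in which they could lie, later-intron peaks were densest on the X chromosome. The genome has 29.9 Mb of sequence that meets the conditions of the class, and the density there was 19.5 peaks per Mb (exact Poisson interval 17.9 to 21.1, counting error only). First-intron sequence had 55.6 peaks per Mb and intergenic sequence 20.2. On the X, 170 later-intron peaks gave 32.0 per Mb (27.4 to 37.2), against 17.1 on the arms of chromosomes 2 and 3. In the top lists of the replicates the X density was 31.7 ± 1.32 per Mb and that of chromosomes 2 and 3 was 17.1 ± 0.290 (SD, n = 3 each). The ratio of X to chromosomes 2 and 3 was 1.88 in the reproducible set and 1.80, 1.88 and 1.91 in replicates 1 to 3. For first-intron peaks the replicate ratios averaged 1.11 ± 0.0649 and for intergenic peaks 0.602 ± 0.0372 (SD, n = 3 each), so the ranges over replicates of the later-intron ratios and of the other classes did not overlap. With 3 values a side the smallest two-sided p of an exact permutation test is above 0.05, and the 3 replicates share the same genome, so no p is given.

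A few genes made up part of the X density. kirre held 18 later-intron peaks, CG1677 14 and Raf 12, which together is 44 of the 170 on the X. Without these 3 genes the X density was 25.5 per Mb and the ratio 1.50, and with 1 peak per host gene the ratio was 1.63. On the 4th chromosome there were 0 later-intron peaks in 0.431 Mb, which allows a density of up to 8.56 per Mb. The median signal of members on the X was 190.0, against 186.4 on the autosomes, and 75.3% of the X members were matched in all 3 replicates, against 68.7%. Sexes were pooled in each sample, and the share of males is not stated in the labels.

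**Figure D2:**
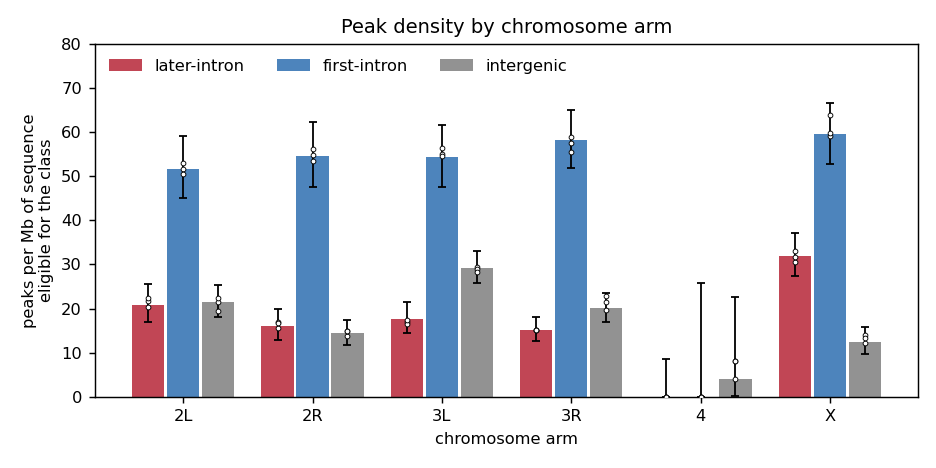
Later-intron, first-intron and intergenic peaks per Mb of the sequence eligible for each class, by chromosome arm. Bars are the reproducible set with exact 95% Poisson intervals, small circles the top lists of the 3 replicates, and the later-intron bar is highest on the X, at 32.0 per Mb.

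The 582 peaks lay in 299 host genes. Of the peaks, 570 lay in protein-coding genes, and 41 lay in introns of more than 1 gene, where the host named is the protein-coding gene with the longest intron. The peaks in CG1677 are of this kind, with the non-coding gene lncRNA:CR44357 overlapping them. In total 291 of 7577 protein-coding genes with eligible sequence were hosts, which is 3.84%. Among the quartile of genes with the most eligible sequence 14.5% were hosts, and among genes with more than 10 kb of it 26.6%. Per Mb of eligible sequence the rates were alike, at 19.3 peaks in that quartile and 17.4 over 10 kb, against 18.8 over all eligible genes. One peak was found in 164 hosts, 2 in 58 and 3 in 37. A promoter peak was found in 94 of the 291 hosts (32.3%), against 1516 of all 7577 eligible genes. A first-intron peak was found in 101 hosts (34.7%), against 654 of all eligible genes (8.63%), while 139 hosts (47.8%) had neither. Of all genes with more than 10 kb of eligible sequence, 17.5% had a promoter peak, 21.2% a first-intron peak and 68.6% neither. Host genes were longer than the rest, with a median of 34077 bp, against 3827 bp for genes that were not hosts, and the shares were not adjusted for length.

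The genes with the most peaks were long, and their peaks varied widely in strength. The 18 peaks of kirre had signals of 118.0 to 582.8, and 14 were matched in all 3 replicates. The 14 peaks of CG1677 ran from 123.8 to 693.7 and all lay in 1 intron of 73902 bp. The 12 peaks of Raf ran from 125.8 to 1191 within 1 intron of 43637 bp, at 356.4 peaks per Mb of its eligible sequence, and the gene had neither a promoter nor a first-intron peak. Tet had 8 peaks (152.8 to 1208), of which 4 were matched in all 3 replicates. mtgo and rdx (which encodes the Hedgehog-induced Cullin adaptor Roadkill) had 7 each, with highest signals of 474.7 and 325.3. The rate over all protein-coding genes was 18.8 peaks per Mb.

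Gene groups were described by counts alone, without a test, beside the background of 3.84% of genes and 18.8 peaks per Mb. The listed genes had more eligible sequence than most, with medians per list of 697.5 to 18247 bp, against 305.0 bp over all eligible genes. In the Notch pathway 6 of 15 eligible genes were hosts, with 63.2 peaks per Mb. mam had 4 peaks (highest signal 571.0), N, the receptor, had 1 (530.2), and kuz, the protease that cleaves it, had 3 (338.2). numb, an inhibitor of Notch, fng, its glycosyltransferase, and Ser, a ligand, were the other hosts counted, with highest signals of 172.5, 171.5 and 122.0. The ligand gene Delta also held a later-intron peak (301.9). It was listed as Dl, a symbol not matched to the annotation, so the counts and the rate of this group leave it out. Of the Wingless pathway 7 of 23 genes were hosts, with 63.1 peaks per Mb. The receptors fz and fz2 had 4 and 6 peaks (576.1 and 410.5), and the co-receptor arr had 4 (457.4).

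In the growth group of Fat, Dachsous and Hippo 4 of 18 genes were hosts, at 60.2 peaks per Mb. They were ex with 2 peaks, the cadherin gene ds with 4 (281.9), the kinase gene wts with 1 (136.5) and the cadherin gene ft with 1 (135.0). The EGFR and Ras group had the highest rate, 111.4 peaks per Mb, but 12 of its 16 peaks were those of Raf, and the others lay in the Ets factor gene pnt (259.5). Only these 2 of 18 genes were hosts. Of the ecdysone response genes 10 of 25 were hosts, with 54.7 peaks per Mb. Among them, E23, an ABC transporter gene, had 4 peaks (487.2), tai, a coactivator of the ecdysone receptor, had 3 (436.7), and Eip74EF had 1 (427.4). EcR, the receptor itself, had 3 peaks with a highest signal of 177.5, below the median of the class. The Polycomb and Trithorax group had 4 hosts of 20 and 72.9 peaks per Mb over a total of 0.0548 Mb. These were Trl with 1471, Psc, a Polycomb complex subunit gene, with 476.4, the chromatin remodeller gene kis with 338.7, and osa with 310.2.

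Groups linked to the known roles of Sox15 had rates of 16.7 to 31.4 peaks per Mb. The wing hinge list had 3 hosts of 34 (19.0 peaks per Mb), which were ush, a GATA cofactor gene (297.3), bi, a T-box gene (238.2), and hth, a homeobox gene with 4 peaks (228.0). In the bristle lineage list, 3 of 18 were hosts (31.4 per Mb), namely N, numb and ct, the homeobox gene cut (293.6). Delta, listed there as Dl too, was a host but was not counted. The Hox and appendage list had 3 of 24 (16.7 per Mb), all named already, as ct, bi and hth. Axon guidance and adhesion genes had 14 hosts of 42, but their eligible introns are long, and 35 peaks in 1.38 Mb gave 25.3 per Mb. kirre, Ten-a (546.7), a teneurin gene, and Sema1a (428.9), a semaphorin gene, had the strongest of these peaks. Ion channel genes were at the low end, with 2 hosts of 29 and 2.64 peaks per Mb. Their peaks were in the acetylcholine receptor genes nAChRalpha6 (181.0) and nAChRalpha5 (117.8). Muscle genes had 2 hosts of 23 (12.8 per Mb), Msp300 (328.9) and Zasp52 (181.4).

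The DNA at later-intron summits was poor in G and C within a surround that was rich in them. Within 100 bp of the summit the GC content averaged 34.5%, against 39.6% in windows of the same size 1000 bp away that touched no exon. These windows could be placed for 550 members, and GC was lower at the summit in 383 of them (69.6%). At the summits of the replicates' own lists GC was 34.7% ± 0.626, against 40.1% ± 0.289 in the flanks (SD, n = 3 each). All sequence eligible for the class had 39.5%. In bins of 50 bp, GC was 32.2% and 31.6% on the left and right of the summit, 46.8% and 45.9% at about 275 bp to either side, and 40.6% and 40.9% near 1000 bp. The contrast with the flank turned to 0.915 percentage points when the window was 250 bp to each side, since that window takes in the GC-rich shoulders. The profile had the same form in first-intron and intergenic peaks. Repeat-masked bases made up 21.5% at summits and 24.4% of the eligible sequence.

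**Figure D3:**
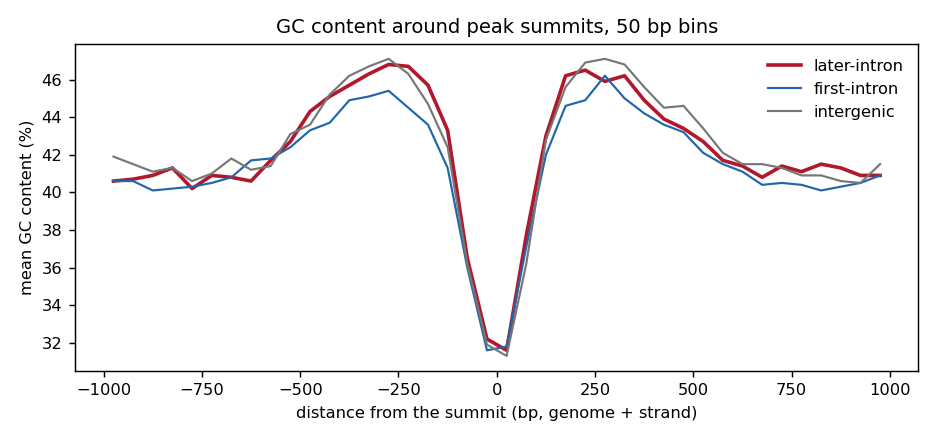
Mean GC content in bins of 50 bp against the distance from the summit for later-intron, first-intron and intergenic peaks. In later-intron peaks the dip to 31.6% at the summit lies between shoulders of 46.8% and 45.9%, and the 3 lines follow each other.

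The Sox core was about as frequent at later-intron summits as nearby. AACAAT was found on either strand within 100 bp of 128 of the 582 summits (22.0%), against 24.6% of all reproducible summits. In the 550 members with a flank it was at 21.6% of summits and in 24.2% of flanks (ratio 0.895, exact McNemar test, two-sided, adjusted p = 0.838 over 16 patterns). The ratio was 1.08 in windows of 50 bp and 1.02 among peaks above the median signal, and did not pass there either. Summits of the single replicates gave 21.3% ± 0.849 against 22.9% ± 0.149 (SD, n = 3 each). The shorter ACAAT gave 48.9% against 46.7% and ACAAAG, shared with TCF, gave 15.5% against 15.1%, and neither passed (adjusted p = 0.838 and 0.930, exact McNemar test). Against first-intron summits, of which 25.8% had AACAAT, the difference of −3.83 points did not pass either (Fisher's exact test, two-sided, adjusted p = 0.564). Among 30 words with the same letters as AACAAT its odds at summits over flanks ranked 29. Of the 20 strongest members 6 held it, among them sba, Dad and kirre.

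Of 16 patterns tested against flanks, 3 (18.8%) were more frequent at later-intron summits and 0 (0%) less frequent. These were the TATA word TATAAA, the GATA factor word AGATAA and a run of A, AAAAAAAA, each sought on both strands. TATAAA was at 36.9% of summits and in 28.0% of flanks (ratio 1.32, exact McNemar test, adjusted p = 0.0132), and AGATAA at 16.7% and in 9.82% (ratio 1.70, exact McNemar test, adjusted p = 0.00724). AAAAAAAA was at 24.2% and in 13.6% (ratio 1.77, exact McNemar test, adjusted p = 2.63e-04). Over the single replicates the ratios were 1.37 ± 0.0530, 1.51 ± 0.173 and 1.42 ± 0.0696 (SD, n = 3 each). These patterns are made mostly of A and T bases. With the GC content of each window in a conditional logistic model, 0 of the 16 passed, and the odds ratio of TATAAA turned to 0.872, while that of AGATAA was 1.55 and that of the run of A 1.36. None passed among the 242 paired peaks above the median signal, where the ratios of the TATA word, the GATA word and the run of A were 1.23, 1.54 and 1.49. With 1 peak per host gene, which leaves 272 pairs, none passed at ratios of 1.29, 1.57 and 1.65. In windows of 50 bp and with flanks 2000 bp away the TATA and GATA words passed and the run of A did not (ratios 1.49 and 1.28). In windows of 250 bp none of the 3 passed. Without replicate 1 or 3 the run of A alone passed.

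The run of A also set later-intron summits apart from the other classes. It was within 100 bp of 137 of 582 later-intron summits (23.5%), against 16.3% of all reproducible summits, 16.3% of first-intron and 15.6% of intergenic summits. The differences were 7.21 and 7.96 points (Fisher's exact test, two-sided, adjusted p = 0.00500 each over 32 tests), and no other pattern passed. Mean GC was 34.5% in later-intron, 34.2% in first-intron and 33.9% in intergenic summits. The calls held without kirre, CG1677 and Raf (Fisher's exact test, adjusted p = 0.0220 each). In windows of 50 bp both were lost (4.57 and 4.03 points), and in windows of 250 bp the one against first-intron summits was lost (6.61 points) and the one against intergenic summits kept (12.7 points). In the same exact test they were lost among peaks above the median signal (6.04 and 5.78 points, adjusted p = 0.533 each), with 1 peak per host gene (6.53 and 7.49 points, adjusted p = 0.263 and 0.170) and in the peaks matched without replicate 1, 2 or 3 (4.59 to 6.50 points, adjusted p = 0.150 to 0.628).

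**Figure D4:**
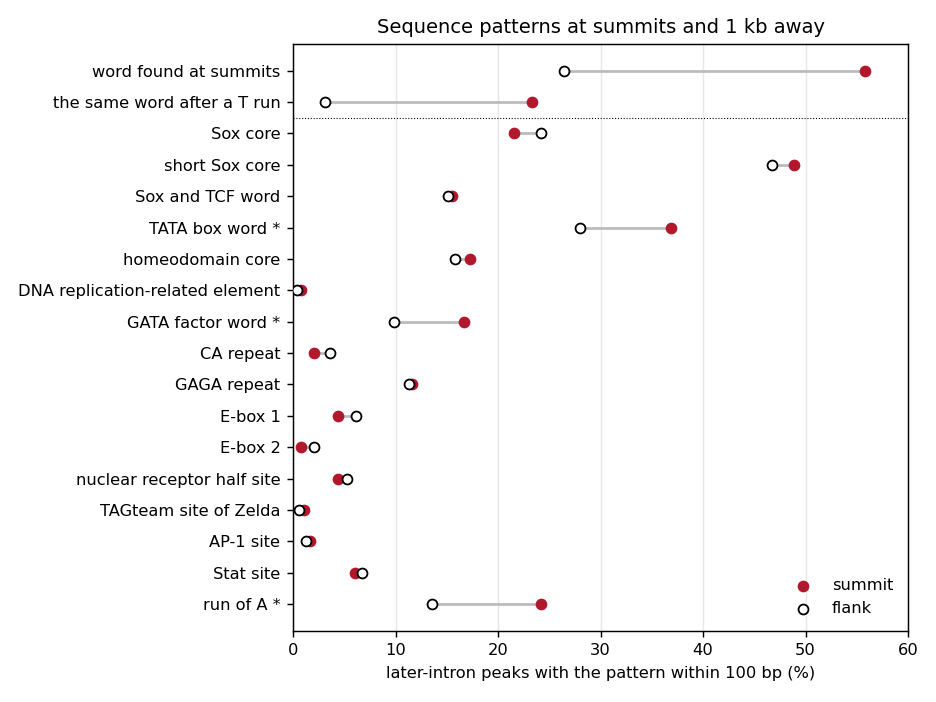
Percentage of the 550 later-intron peaks with each pattern within 100 bp of the summit (filled) and in the flank (open), where the upper pair is CAGTG and its longer form, found in these same peaks, and E-box 1 and 2 are CAGCTG and CACGTG. Asterisks mark the 3 patterns with an adjusted p under 0.05 (exact McNemar test), and CAGTG has the widest gap among all, 55.8% against 26.4%.

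A word outside the 16 patterns was more frequent at later-intron summits than in flanks. All 774 words of 6 letters that were frequent enough were ranked by their odds at later-intron summits over flanks. The first, AGGTAA, was at 9.27% of summits and in 2.55% of flanks. Of the next ones many held CAGTG, such as ACAGTG, which ranked 3 and was at 20.7% of summits and in 6.91% of flanks. CAGTG itself was within 100 bp of 319 of 582 summits (54.8%, 95% Wilson interval 50.7 to 58.8%), against 47.9% of all reproducible summits. In the paired windows it was at 55.8% of summits and in 26.4% of flanks, a ratio of 2.12. The ratio was 1.63 and 1.52 in windows of 50 and 250 bp, 1.78 with flanks 2000 bp away, and 1.92, 1.78 and 1.97 at the summits of replicates 1 to 3. Since the word was picked from these peaks, this is a description with no test. Of the 60 words of its letters and their orders it had the highest ratio, and their median was 0.850. Later-intron summits of the single replicates had it at 53.0% ± 0.934, against 28.1% ± 1.48 in their flanks (SD, n = 3 each).

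CAGTG was about as frequent in weak as in strong members. It was present in 55.5%, 56.6%, 50.3% and 56.8% of the signal quartiles of the class from the strongest to the weakest. Of the 20 strongest members 9 held it. It was less frequent in the quartile with the lowest GC content (40.4%) than in the one with the highest (65.1%). Most members with the word had 1 copy (219), while 82 had 2, 13 had 3 and 5 had more. It was most frequent away from the summit itself, at 25.4% of members 50 to 100 bp to the right and 19.1% at the same distance to the left, against 12.4% and 13.2% in the 50 bp next to the summit.

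The bases before CAGTG were rich in T at a fixed distance. Read along the strand of the word, T was found 5, 6 and 7 bases before it in 51.0%, 56.4% and 52.7% of 353 copies at later-intron summits, against 40.6%, 32.5% and 33.1% of 160 copies in flanks. Copies near the ends of the windows, without enough bases around them, were left out of this count. The form with TTT 4 bases before CAGTG was at 132 of 582 later-intron summits (22.7%), against 14.0% of all reproducible summits, 16.3% of first-intron, 20.7% of intergenic and 7.12% of promoter summits. In the paired windows it was at 23.3% of later-intron summits and in 3.09% of flanks, a ratio of 7.53, and the ratios were 6.67 in first-intron and 10.7 in intergenic peaks. The word was not chosen on the other classes, although their shares had been seen before they were tested. There, CAGTG was at 50.4% of first-intron summits against 29.5% of flanks (exact McNemar test, adjusted p = 2.55e-24) and at 50.2% of intergenic summits against 30.9% (exact McNemar test, adjusted p = 1.10e-13).

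The longer word almost always faced away from the summit, with TTT on the summit's side and CAGTG on the far side, as in the sequences of ex and CG1677. Within 200 bp of the later-intron summits there were 216 copies in 175 members, and 206 of them (95.4%, 95% Wilson interval 91.7 to 97.5%) faced outward. The outward copies stood at a median of 82.0 bp from the summit, with an interquartile range of 57.0 to 104.8 bp. Around the centres of the flanks, 13 of 30 copies (43.3%, 27.4 to 60.8%) faced outward. In the replicates' own summits the outward shares were 95.6%, 95.2% and 93.3%, and in first-intron and intergenic peaks they were 93.5% and 96.1%, so the later-intron share was not set apart from those. On both sides of the summit at once, an outward copy was found in 40 members (6.87%). The pattern was noticed in all classes together, so it is given without a test.

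The copies were spread over many genes. They lay in members of 133 of the 299 host genes, non-coding hosts included, and without kirre, CG1677 and Raf 94.9% of 196 copies faced outward. With 1 peak per host gene it was 94.7% of 113. The letters CAG also end introns, after a run of C and T. At 0 of the 216 copies did CAG end an annotated intron on the same strand. Few could have done so. The copies lay within 200 bp of a summit, and only 69 of 582 summits lay within 500 bp of an intron end. Neither 5' splice sites nor CAGTG without TTT were checked, so the count says little about splice signals. In CG11050 a copy of the longer word spanned the start of the intron, with its CAGTG right before the intron and its TTT inside. The CAG of a copy without TTT ended the intron. A match of letters is a description and does not show which protein was bound. Summits are positions given by the authors' caller, and the shape of the read profile behind them was not analysed here.

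**Figure D5:**
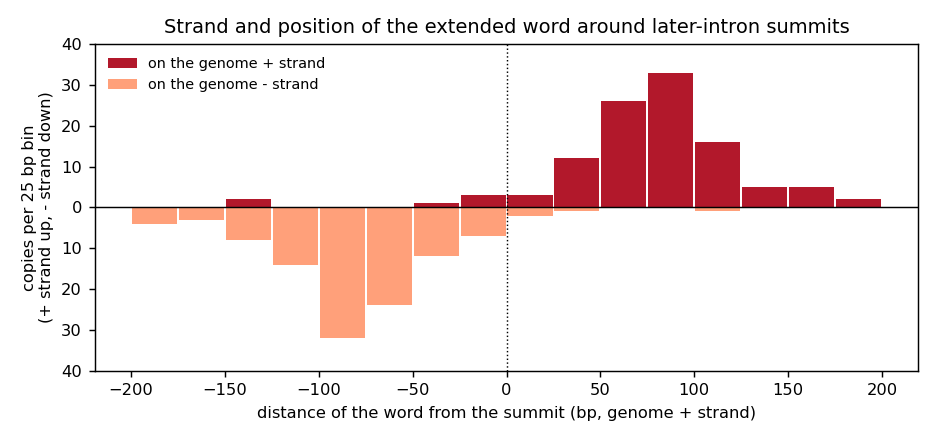
Copies of CAGTG with TTT 4 bases before it per 25 bp bin around the 582 later-intron summits, with copies on the genome + strand drawn upward and those on the − strand downward. Copies on the + strand stand almost all to the right of the summit and those on the − strand to the left, so that 206 of 216 face outward.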

How the data were processed

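ChIP-seq peak lists of 3 biological replicates of Sox15-eGFP prepupae were used, 1 group with no second condition. Per the labels, chromatin was sonicated to fragments of 200 to 800 bp. The authors deposited, in dm6 coordinates, a relaxed list for each replicate, a relaxed list of the pooled replicates and an optimal set passing an irreproducible discovery rate (IDR) threshold, here called reproducible. The pooled relaxed list is named as peaks and background for the IDR step, so weak entries of relaxed lists may be background. Lists in dm3 coordinates were not used. Each deposited peak has a signal value of unstated scale and a −log10 q-value, and only the signal was used, within 1 list. Names of the aligner and caller, not given in the sources used here, could not be stated, and with no read counts the depth is unknown, and the number of peaks and replicates limits precision. Intervals are 95% and cover counting error only.

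Classes came from the Ensembl release 115 annotation of BDGP6 with transposable elements removed, and sequence from RefSeq Release 6, whose arm lengths fit the lists. A peak was matched when a peak among the 4555 strongest of a replicate covered at least 50% of it. Classes were compared by Fisher's exact test and summits with a non-exonic window 1000 bp away (side drawn at random, seed 1) by the exact McNemar test, two-sided, with Benjamini-Hochberg adjustment and a threshold of 0.05. Signal shares and match shares formed 1 family of 4 tests, but without 1 replicate the signal tests were adjusted on their own. Words of 6 letters were ranked, without a test, by odds at summits over flanks. Genes were named by rule: hosts of the 20 strongest members, the 5 genes with the most peaks, up to 3 hosts per list by signal, and the 5 peaks nearest the 500 bp limit on each side. numb, fng, Ser, Delta, ft, EcR and osa were named beyond it after their values were seen. The symbols Dl, d, Cap and calypso were not matched to the annotation and were left out of the lists. Dl is there under the symbol Delta, which was a host. The members, lists and patterns were chosen with earlier results of these data known. Alternatives were other windows, flanks, overlaps, start-site distances and subsets, and each replicate left out of the matching. Leaving out a replicate kept the reproducible peaks matched in both others, with the pooled signal and summits unchanged. The procedures were tested on simulated data with Python 3.11.15, numpy 2.4.6, pandas 2.3.3, SciPy 1.17.1, statsmodels 0.14.6 and matplotlib 3.10.9.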

Additional observations from a re-analysis of the deposited data

How the results depend on the processing

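The share of later-intron peaks among reproducible peaks was 14.2% and 11.6% with start-site distances of 250 and 1000 bp, 13.2% with protein-coding genes alone, 11.3% (257 peaks) among peaks above the median signal and 12.3 to 12.5% without 1 replicate. Matches in all replicates were 21.0% with 90% overlap, 97.3% in the whole relaxed lists and 76.6 to 80.2% without 1 replicate. The difference in matching from first-intron peaks was −3.37 points with 90% overlap, reversed to 0.391 in the whole relaxed lists, and was −4.92 to −4.14 without 1 replicate. From intergenic peaks, where no setting passed, it turned to −0.408 with any overlap, −0.312 with 90% overlap and −0.654 without replicate 3 (−0.654 to 0.210 without 1 replicate). The difference in signal from first-intron peaks was −5.82 points with 1 peak per host gene and −4.61 to −3.11 without 1 replicate. From intergenic peaks it was 15.1 points with 1 peak per host gene. That setting keeps the strongest peak of each gene by construction, while every intergenic peak stays. The difference was 4.12 to 7.13 without 1 replicate. It passed in the 1-peak setting and, adjusted over 2 tests in place of 4, without replicate 1. GC content at summits was 31.7% and 41.0%, and its difference from flanks −7.78 and 0.915 points, in windows of 50 and 250 bp. Patterns more frequent at summits than in flanks numbered 1 in 250 bp windows (GAGAGA, ratio 1.58, not among the 3 reported, which were all lost there), 0 with GC as a covariate, among peaks above the median signal and with 1 peak per host gene, and 1 to 3 without 1 replicate. The run of A was lost in 50 bp windows (1.49) and with flanks 2000 bp away (1.28), where TATAAA and AGATAA passed. With flanks 2000 bp away, 2 were called less frequent, CACACACA and CAGCTG. The ratio of TATAAA reversed to 0.965 in 250 bp windows and 0.872 with GC as a covariate, and that of AGATAA was 1.00 in 250 bp windows. Ratios that turned without passing in either setting were, in 50 bp windows, AACAAT (1.08), ACAAAG (0.953) and GAGAGA (0.824), in 250 bp windows ACAAT (0.958), TAATTA (0.857), CAGCTG (1.14) and TGACTCA (0.893), with flanks that may touch exons ACAAAG (0.989), with flanks 2000 bp away AGGTCA (1.79) and TGACTCA (0.529), with GC as a covariate ACAAT (0.848), TAATTA (0.763) and CAGCTG (1.31), among peaks above the median signal AACAAT (1.02), with 1 peak per host gene TAATTA (0.960), and, without 1 replicate, the Stat word (0.828 to 1.13). AACAAT turned to 0.447 points above intergenic summits in 50 bp windows. Patterns differing from first-intron summits were 0, in place of 1, in windows of 50 and 250 bp, among peaks above the median signal, with 1 peak per host gene and without any 1 replicate. From intergenic summits they were 2 in 250 bp windows and 0 in the other settings just named. Protein-coding hosts numbered 167 among peaks above the median signal and 837 in the pooled relaxed list of peaks and background, against 291. Listed hosts numbered 33 and 102, against 55. The X ratio was 1.50 without kirre, CG1677 and Raf, 1.63 with 1 peak per host gene, 2.02 among peaks above the median signal and 1.95 to 2.01 without 1 replicate. Settings without 1 replicate left it out of the matching only. Apart from the match shares, they used the reproducible peaks matched in both others, with the pooled signal. The cause of these shifts was not tested. The alternatives for the X ratio, CAGTG and its direction were chosen after seeing the data. The ratio of CAGTG, which has no test, was 1.52 to 2.26 over all settings.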
